A study of Mus musculus with 192 samples.

Results

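The 10 genes described here are the heme-regulated kinase gene Eif2ak1, the transcription factor gene Atf4 and 8 genes that ATF4 is known to act on: Ddit3, Trib3, Chac1, Sesn2, Ppp1r15a, Asns, Psat1 and Phgdh. They were taken by symbol from the 49466 genes of the count table, and all 10 were found. Their levels were read in single mouse erythroid progenitors of 2 kinds, burst-forming units-erythroid (BFU-E), the earlier progenitor, and colony-forming units-erythroid (CFU-E), which follow it and come before the first recognisable erythroblasts.

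The kinase encoded by Eif2ak1, HRI, is held inactive by heme and becomes active when heme is short or when the cytosol or mitochondria are stressed. It phosphorylates the alpha subunit of the initiation factor eIF2, which slows translation of most mRNAs and favours that of Atf4. ATF4 then raises transcription of genes for amino acid synthesis, amino acid transport, tRNA charging and stress handling, and in red cell precursors this route is known for matching globin synthesis to heme. Most of its control lies in translation and phosphorylation, which mRNA counts do not read.

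Both groups came from fetal livers of C57/Bl6J mice at embryonic day 14.5, with no genetic change or treatment named in the labels. Cells carrying lineage antigens, Sca-1, CD16/32 or CD41 were depleted, and the rest were sorted one by one into wells by CD117, CD71 and CD24 with a viability dye. Neither the gates nor how many embryos or litters were pooled is stated in the sources used here. Smart-seq2 was used for the libraries, a method that covers whole transcripts and carries no molecular identifiers, with 96 wells of each kind.

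Each kind of cell filled 1 plate and 1 sequencing lane, so cell type cannot be told apart from plate and lane, and each plate counts as 1 sample with no test and no p-value. Wells held 6473 to 3864040 counts on the BFU-E plate and 5825 to 2992101 on the CFU-E plate, and 92 BFU-E and 89 CFU-E cells passed a minimum of 100000 counts and 2000 genes. Every kept cell was thinned to 100000 counts, so that 1 count in a cell equals a level of 10 CPM (counts per 1000000). Levels of a group are CPM of its summed counts, with exact Poisson 95% intervals, and folds are ratios of those levels with exact conditional intervals. Intervals of levels and folds take every read as independent. PCR copies were not told apart from separate molecules, so these intervals can be too narrow even for counting error. Intervals of shares of cells take the cells of a plate as independent. None of them covers spread between animals. The same 95 index pairs were used on both plates, which were read in separate lanes.

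The BFU-E plate was not uniform, and this bears on every comparison with it. Clustering without the 10 genes and their pathway lists split it into 53 cells led by erythroid genes (12 of 12 erythroid markers higher there) and 39 granulocyte-monocyte-like cells (11 of 15 markers of that kind higher there). The granulocyte-monocyte markers summed to 5842 CPM in the 39 cells, led by Mpo at 3924 CPM and Csf1r at 476 CPM. In the 53 erythroid BFU-E cells their sum was 206 CPM. The CFU-E plate had a sum of 5.39 CPM, with Mpo at 0. In the 53 cells, 1 cell with more granulocyte-monocyte than erythroid markers held 71.5% of the Mpo counts. Megakaryocyte markers summed to 563 CPM in erythroid BFU-E, led by Itga2b at 228 CPM, and to 25.1 CPM on the CFU-E plate. Hepatocyte markers summed to 212 CPM in erythroid BFU-E, 181 CPM in the granulocyte-monocyte-like cells and 162 CPM on the CFU-E plate. The 12 erythroid markers summed to 3245 CPM in erythroid BFU-E and 13602 CPM on the CFU-E plate, where Car2 alone held 6244 CPM. Muc13, at 0, and Car1, at 19.1 CPM beside 390 CPM in erythroid BFU-E, were lower on the CFU-E plate. The other markers were at least as high there. That plate formed no separated clusters, but 3 of its cells carried at least 3 lymphoid markers, with Ebf1 at 710 CPM and Igll1 at 417 CPM. Cells were marked by this rule on the CFU-E plate only. In the granulocyte-monocyte-like cells the lymphoid markers summed to 108 CPM, led by Rag2 at 38.2 CPM and Il7r at 37.4 CPM, with a highest cell of 1410 CPM. No doublet caller was run on these singly sorted cells. The part of these other cell types in the differences below was not tested, and results that rest on them are given with and without them.

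Promoters of 4 of the genes hold a motif through which this pathway is known to act on its targets, and the sequence of 3 of them is shown. A pair of motifs was searched on both strands of the RefSeq promoters (GRCm38.p6, 250 bases before to 50 after each start): TGATGNAA, the core of the C/EBP-ATF response element, and TGACGTCA, the cAMP response element. No 8 letters can match both. All 10 genes had a promoter in the table, 11 windows in all. TGATGNAA lay in 3 of the 10 genes (Asns, Chac1 and Trib3) and in 3.97% of 32851 promoters of the same length. TGACGTCA lay in 1 of the 10 (Ppp1r15a) and in 1.79% of promoters. The sequences below run 5′ to 3′ along the gene, with the match in capitals.
Asns: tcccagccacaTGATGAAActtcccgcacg
Chac1: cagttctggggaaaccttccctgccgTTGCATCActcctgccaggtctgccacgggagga
Ppp1r15a: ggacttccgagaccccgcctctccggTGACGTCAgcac
The Asns window is chr6:7693214-7693243 on the minus strand, and its match begins 23 bases before the RefSeq start. All 30 of its bases fall in an exon of a longer Asns model in GENCODE M21. The Chac1 window is chr2:119351023-119351082 on the plus strand, where the match reads on the opposite strand and begins 193 bases before the start. The Ppp1r15a window is chr7:45526269-45526306 on the minus strand, with its match beginning 12 bases before the start. The Trib3 match begins at base 15 of the transcript and is not shown. A match describes letters only, and the absence of one in the other genes says nothing of the factor outside these windows. As the levels below show, the 3 genes sharing TGATGNAA did not share a level: Asns was abundant, while Chac1 and Trib3 were almost without counts.

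Asns, which encodes asparagine synthetase, had the highest ratio of CFU-E to BFU-E cells among the 10 genes. Erythroid BFU-E cells held 187 CPM (175.9 to 199.4) of it and CFU-E cells 1708 CPM (1681 to 1735), which made the ratio 9.12 (8.55 to 9.73). Of 9153 genes with a mean of at least 5 CPM in these groups, 0.743% had a higher fold. Against all 92 BFU-E-plate cells, at 133 CPM, the ratio was 12.8 (12.1 to 13.6). Under every other scaling, cell filter and thinning tried, the ratio to erythroid BFU-E stayed between 8.37 and 14.4.

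Single cells showed the same separation. Asns had a lowest, median and highest cell of 0, 150 and 800 CPM in erythroid BFU-E, whereas CFU-E cells had 30, 1720 and 3200 CPM. The groups overlapped in few cells: 83 of 89 CFU-E cells lay above the highest BFU-E cell, and the other 6 included all 3 cells with lymphoid markers. Without those 3 cells the CFU-E level was 1763 CPM, and the lowest of the 86 remaining cells had 600 CPM. Every kept CFU-E cell held an Asns count, as did 46 of 53 erythroid BFU-E cells. The gene lies at chromosome 6, 7675169 to 7693254, and shares no exonic bases with another gene in GENCODE M21.

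**Figure D1:**
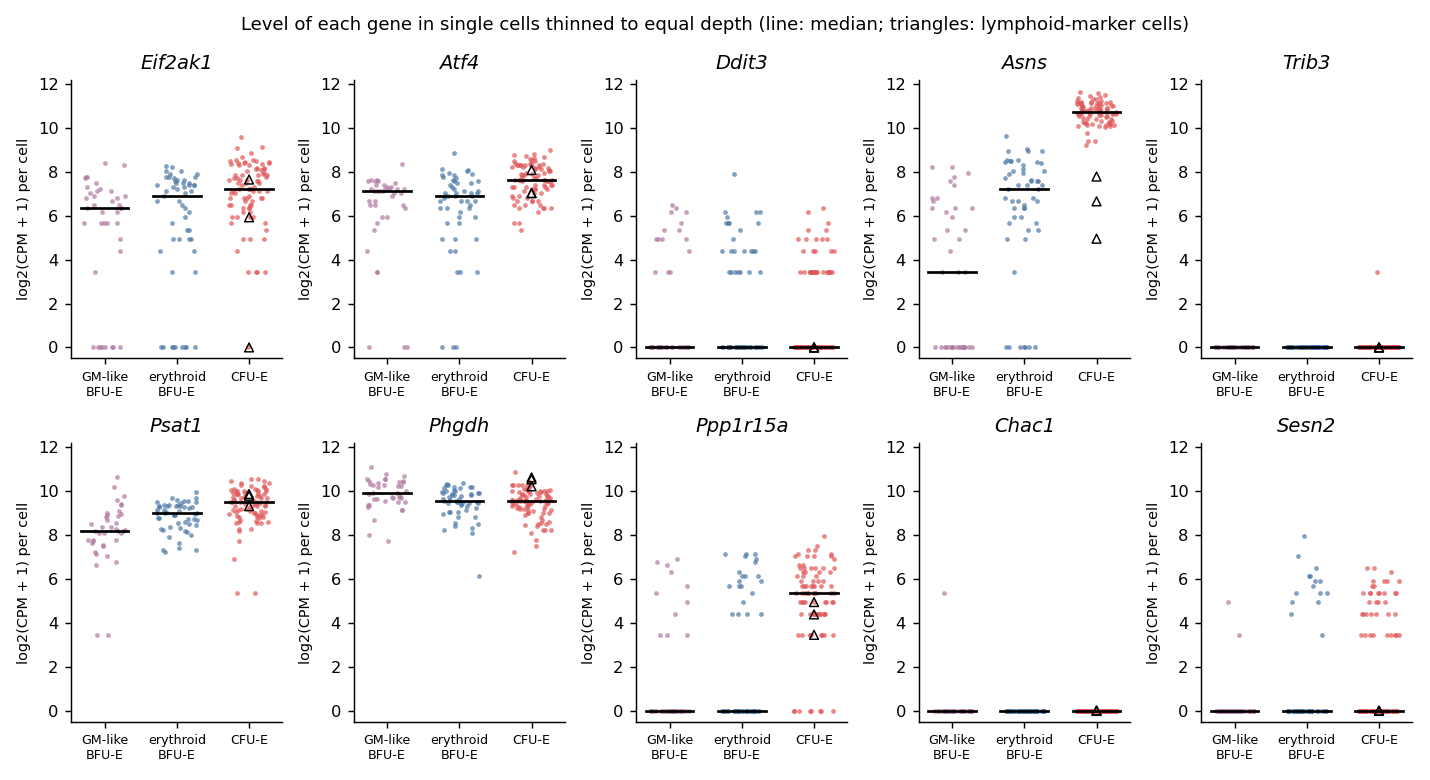
Level of each of the 10 genes in single cells thinned to 100000 counts, as log2(CPM + 1), for 39 granulocyte-monocyte-like (GM-like) and 53 erythroid cells of the BFU-E plate and 89 CFU-E cells. Each point is a cell, the black line is the median of all cells of the column, and triangles mark the 3 CFU-E cells with lymphoid markers. Asns is the gene whose groups separate, while Trib3 and Chac1 lie at 0 in nearly all cells.

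The kinase gene and the factor gene were both modestly higher in CFU-E cells. Eif2ak1 had a lowest, median and highest cell of 0, 120 and 310 CPM in erythroid BFU-E and of 0, 150 and 780 CPM in CFU-E cells. Summed, this was 115 CPM (106.1 to 124.6) and 187 CPM (178.1 to 196.2), a ratio of 1.62 (1.48 to 1.79). Against the whole BFU-E plate the ratio was 1.77 (1.63 to 1.91). Most cells of the groups overlapped, with 18 of 89 CFU-E cells above the highest erythroid BFU-E cell. An Eif2ak1 count was found in 44 of 53 erythroid BFU-E cells and 87 of 89 CFU-E cells. The gene lies at chromosome 5, 143817788 to 143904251, and 659 of its 5670 exonic bases are shared with Ankrd61 and Aimp2 on the opposite strand. The library kit does not mark strand, so reads in the shared bases cannot be assigned, and Aimp2 had 15054 counts against 33094 for Eif2ak1 over all matched cells.

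Atf4 had a lowest, median and highest cell of 0, 120 and 470 CPM in erythroid BFU-E and of 40, 200 and 510 CPM in CFU-E cells. The ratio of the summed levels, 219 CPM over 125 CPM, was 1.74 (1.60 to 1.91). Against the whole BFU-E plate it was 1.79 (1.66 to 1.92). The ranges overlapped almost wholly, but 70 of 89 CFU-E cells exceeded the erythroid BFU-E median and 10 of 53 erythroid BFU-E cells exceeded the CFU-E median. Every kept CFU-E cell held an Atf4 count. Atf4 lies at chromosome 15, 80255184 to 80257541, with no exonic overlap with another gene.

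These folds depend on how the libraries are scaled. In CPM the median log2 fold of all genes, on the log2(CPM + 1) scale used throughout, was -0.53 in CFU-E over erythroid BFU-E and -0.57 over the whole BFU-E plate. Scaling by the trimmed mean of M-values (TMM) moved these medians by 0.56 and 0.55, and median-of-ratios scaling by 0.63 and 0.61. Relative to the median gene in CPM, Eif2ak1 was 1.22 and Atf4 was 1.33 higher on the log2 scale in CFU-E than in erythroid BFU-E cells. With TMM scaling the ratio was 2.44 for Eif2ak1 and 2.62 for Atf4.

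The target genes linked to stress and cell death were scarce or absent. Ddit3, which encodes the pro-apoptotic factor CHOP, had a median of 0 CPM in both groups and highest cells of 240 CPM (erythroid BFU-E) and 80 CPM (CFU-E). Summed over cells, erythroid BFU-E held 18.7 CPM. The CFU-E level of 8.20 CPM was 2.28-fold lower (1.67 to 3.13). Compared with the whole BFU-E plate, at 17.4 CPM, it was 2.12-fold lower (1.60 to 2.84). All CFU-E cells lay within the erythroid BFU-E range. The 2-fold call was not stable: with another random thinning the ratio of CFU-E to erythroid BFU-E was 0.546, with unthinned counts 0.644, and without the highest cell of each group 0.512. That highest erythroid BFU-E cell held 24.2% of the counts of its group. TMM scaling gave 0.659. A Ddit3 count was seen in 47.2% of thinned erythroid BFU-E and 39.3% of thinned CFU-E cells, and in 56.6% and 76.4% of the same cells unthinned, so no order is read from these shares. Ddit3 (chromosome 10, 127290774 to 127296288) shares 186 exonic bases with other entries, among them Mars on the opposite strand, which had 65309 counts against 2396.

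Trib3, which encodes a pseudokinase that ATF4 and CHOP induce, had 1 count in all CFU-E cells and none in the BFU-E plate after thinning. Before thinning it had 12 counts in 1 CFU-E cell and 1 count in 1 BFU-E cell. Chac1, which encodes a glutathione-degrading enzyme, had 4 counts in 1 granulocyte-monocyte-like cell and none elsewhere. Its absence in 89 CFU-E cells allows a share of up to 3.37% of cells with a count at this depth by the limit of 3 cells, or 4.06% by the exact 95% bound. Neither gene reached a mean of 5 CPM, and no fold is given for them. Trib3 lies at chromosome 2, 152337422 to 152344032, and Chac1 on the same chromosome at 119351229 to 119354381.

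Sesn2, which encodes a leucine sensor and stress-induced inhibitor of mTORC1, was found in 15 of 53 erythroid BFU-E and 37 of 89 CFU-E cells at equal depth, and in 17 and 50 of them unthinned. Its lowest, median and highest cells were 0, 0 and 250 CPM in erythroid BFU-E and 0, 0 and 90 CPM in CFU-E cells. The levels of 18.7 CPM and 14.3 CPM gave a ratio of 0.764 (0.583 to 1.004), an interval that reached equality. Counts were concentrated: the top 6 of 53 erythroid BFU-E cells held 67.7% of them, against 47.2% in the top 9 of 89 CFU-E cells. With TMM scaling the ratio was 1.15, on the other side of equality. In CPM against the whole BFU-E plate, at 11.2 CPM, the ratio was 1.27 (0.975 to 1.67). That too lay on the other side, with an interval that reached equality. The gene lies at chromosome 4, 132492032 to 132510501.

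Ppp1r15a encodes GADD34, the phosphatase subunit that reverses eIF2 phosphorylation and so closes the loop. Its lowest, median and highest cells were 0, 0 and 140 CPM in erythroid BFU-E and 0, 40 and 250 CPM in CFU-E cells. The levels were 28.1 CPM and 52.1 CPM, a ratio of 1.85 (1.54 to 2.25), and 2.32 (1.96 to 2.74) against the whole BFU-E plate at 22.5 CPM. The ranges overlapped, with 4 CFU-E cells above the highest BFU-E cell. More cells carried it: a count was found in 81 of 89 CFU-E cells (91.01%, 83.1 to 96.04, exact binomial) and in 21 of 53 erythroid BFU-E cells (39.6%, 26.5 to 53.996) at equal depth. Among cells with a count, the erythroid BFU-E median was 60 CPM and the CFU-E median 40 CPM. The gene lies at chromosome 7, 45522916 to 45526268.

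The serine synthesis genes Psat1 and Phgdh had smaller ratios than Asns. Psat1, encoding phosphoserine aminotransferase, had a lowest, median and highest cell of 150, 510 and 1000 CPM in erythroid BFU-E and of 40, 720 and 1500 CPM in CFU-E cells. Its ratio was 1.48 (1.42 to 1.55), from 504 CPM to 747 CPM, and 20 of 89 CFU-E cells lay above the highest erythroid BFU-E cell. Phgdh, encoding phosphoglycerate dehydrogenase, which makes the committed step of the same route, had a lowest, median and highest cell of 70, 750 and 1350 CPM in erythroid BFU-E. In CFU-E cells these were 150, 760 and 1870 CPM. The summed levels of 784 CPM and 780 CPM gave a ratio of 0.994 (0.957 to 1.03). TMM scaling put the Phgdh ratio at 1.49 and the Psat1 ratio at 2.22. In CPM against the whole BFU-E plate, the ratio was 0.875 (0.847 to 0.903) for Phgdh and 1.65 (1.58 to 1.71) for Psat1. Every kept cell of both plates held counts of both genes. Psat1 lies at chromosome 19, 15904678 to 15947337. Phgdh lies at chromosome 3, 98313170 to 98339990, and its pseudogene copy Phgdh-ps1 had 153 counts against 182387.

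**Figure D2:**
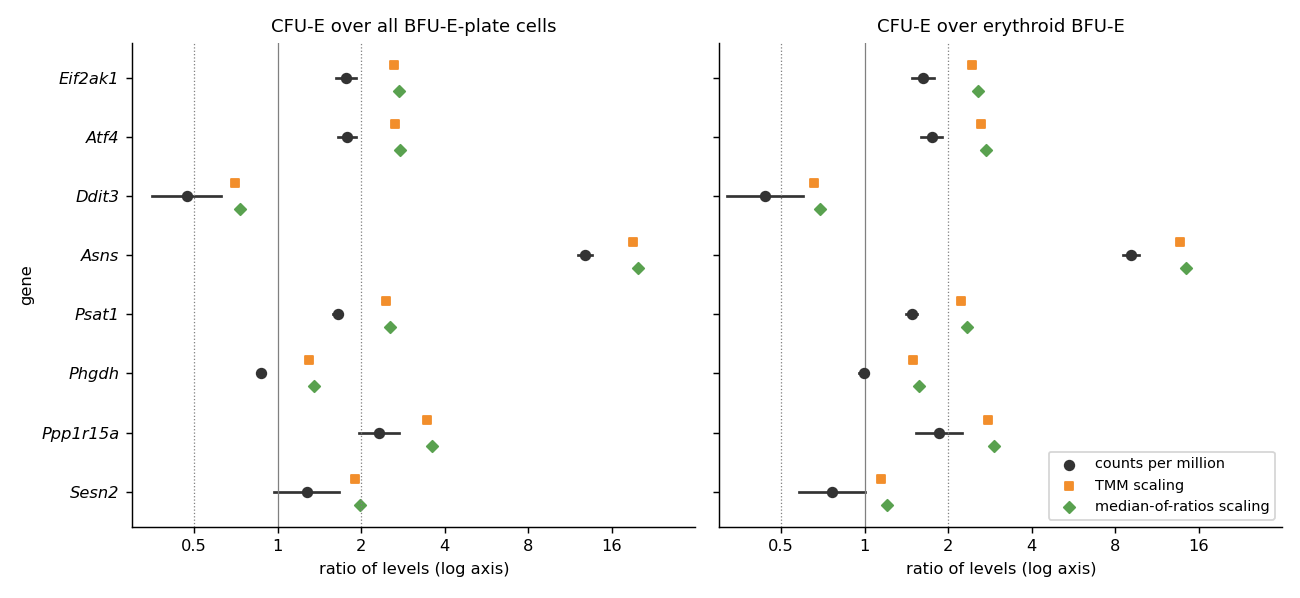
Ratio of the summed levels of 8 genes in CFU-E cells over all 92 kept BFU-E-plate cells (left) and over the 53 erythroid BFU-E cells (right), on a log axis. Black points are CPM ratios with exact conditional 95% intervals (every read taken as independent), orange squares TMM scaling and green diamonds median-of-ratios scaling. Both scalings lie to the right of CPM, and Asns stands at 9.12 in CPM on the right panel.

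Counted together, 8 of the 10 genes reached a mean of 5 CPM. Against erythroid BFU-E, CFU-E cells had 1 of the 8 at or above 2-fold (Asns) and 1 at or below its inverse (Ddit3). Over all 9153 genes measured there, 6.14% were that much higher and 31.3% that much lower. The median log2 fold of the 8 genes was 0.63 beside -0.53 for all genes. Against the whole BFU-E plate, 2 were higher (Asns and Ppp1r15a, background 6.45%) and 1 lower (Ddit3, background 34.2%), with a median of 0.77 beside -0.57. These comparisons share the CFU-E cells. With TMM scaling, 5 of the 8 were at least 2-fold higher in both (Eif2ak1, Atf4, Asns, Psat1 and Ppp1r15a) and none lower, while the background was 15.2% higher and 16.5% lower against erythroid BFU-E, and 14.8% and 19.8% against the whole plate. With median-of-ratios scaling the same 5 genes were higher in both, beside 16.6% and 16% of all genes. Leaving out the 3 CFU-E cells with lymphoid markers changed none of the 4 CPM counts.

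Per kilobase of exon, the order of levels differed between the groups. In erythroid BFU-E cells it ran from Phgdh at 315 CPM per kb through Psat1 at 118, Asns at 68.5, Atf4 at 53.2 and Eif2ak1 at 20.3 CPM per kb. Ddit3 at 10.9 and Ppp1r15a at 9.57 CPM per kb had overlapping counting intervals, and Sesn2 stood at 5.38 CPM per kb. In CFU-E cells Asns led at 624 CPM per kb, followed by Phgdh at 314, Psat1 at 175, Atf4 at 92.8, Eif2ak1 at 32.97 and Ppp1r15a at 17.8 CPM per kb. Ddit3 at 4.79 and Sesn2 at 4.11 CPM per kb had overlapping intervals. Asns thus stood at the third place in the earlier group and at the first in the later one.

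Within the BFU-E plate, where plate and lane are shared, Asns and Sesn2 were the genes that passed 2-fold between the cell classes. Of the 8 measured genes, 2 were at least 2-fold lower in granulocyte-monocyte-like than in erythroid cells (background 8.75%) and 0 were higher (background 13.8%), with a median log2 fold of -0.34 beside -0.00 for all genes. The same 2 genes were lower with TMM (background 9.04%) and median-of-ratios scaling (9.18%). Because the classes come from clustering the same cells, this is a description. Asns was at 59.2 CPM in the granulocyte-monocyte-like cells, 3.16-fold lower (2.74 to 3.67), with a median cell of 10 CPM and a highest of 300 CPM. Sesn2 had 4 counts there, at 1.03 CPM and 18.2-fold lower (6.89 to 68.2). It reached the 5 CPM mean only through the erythroid class, so its place in this count follows from its level there. Ppp1r15a, at 14.9 CPM, was 1.89-fold lower (1.39 to 2.61). Atf4, at 119 CPM, had a ratio of 0.946 (0.839 to 1.07), and Eif2ak1, at 93.3 CPM, one of 0.811 (0.710 to 0.925). Phgdh was the gene with the highest ratio, 1.32 (1.27 to 1.38), at 1037 CPM. Listed from granulocyte-monocyte-like to erythroid BFU-E to CFU-E cells, the levels of Asns, Eif2ak1, Atf4, Psat1 and Ppp1r15a stood in ascending order. For Atf4 the counting intervals of the BFU-E classes overlapped. The share of all genes with this order was not computed, so nothing particular to these genes is read from it. The listing is not an order of descent.

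Erythroid progress within a group was read from a score, the mean log2(CPM + 1) of 15 erythroid genes minus that of 10 progenitor genes. Across the 53 erythroid BFU-E cells, Pearson's r of Asns with the score was 0.56, and 0.49 without the 2 cells farthest from the median score. Atf4 had an r of 0.32 and 0.44 without those 2 cells, Psat1 0.34 and 0.18, and Eif2ak1 0.09 and 0.06. Across the 86 CFU-E cells without lymphoid markers, r was 0.18 for Asns and -0.09 for Atf4, and Phgdh had the lowest value, -0.36, or -0.28 without the 2 farthest cells. The share of all genes with r values this high or this low was not computed, so nothing particular to these genes is read from them. Cells of a plate share library batch, lane and reagents, and the score genes share the thinned total with the gene they are set against. Unthinned depth also moved with some genes: r with log10 counts was 0.53 for Phgdh, 0.32 for Atf4, 0.31 for Eif2ak1 and 0.24 for Asns in erythroid BFU-E cells. In CFU-E cells it was 0.27 for Asns and 0.26 for Atf4, and its part in these values was not tested.

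**Figure D3:**
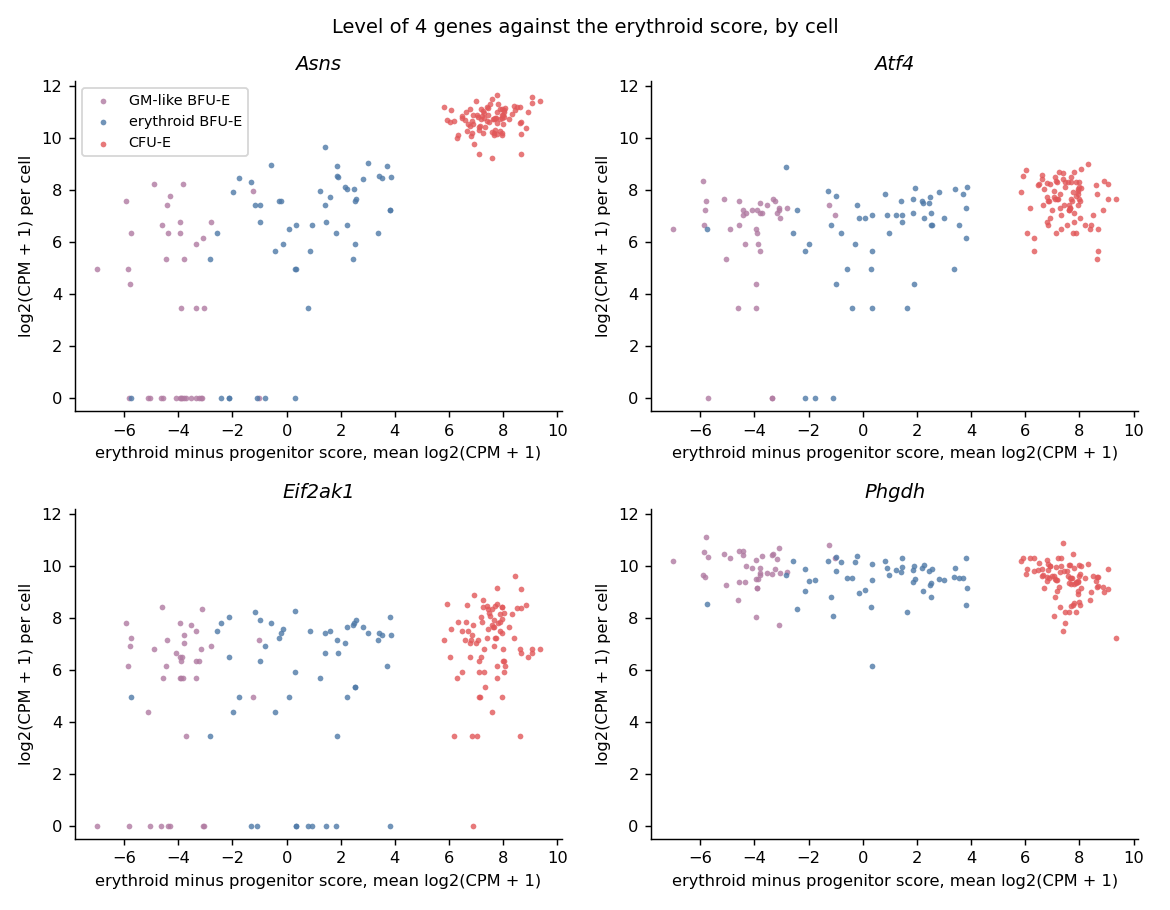
Level of Asns, Atf4, Eif2ak1 and Phgdh, as log2(CPM + 1), against the erythroid minus progenitor score in single cells of the BFU-E plate (granulocyte-monocyte-like and erythroid) and the CFU-E plate without the 3 cells with lymphoid markers. Each point is a cell, and the scores of erythroid BFU-E cells end at 3.86 while those of CFU-E cells begin at 5.83. Asns is higher in erythroid BFU-E cells of higher score (r = 0.56), and Phgdh is lower in CFU-E cells of higher score (r = -0.36). The share of all genes with such values was not computed.

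Across cells of a group, r between the levels of these genes was mostly small. Over the 28 pairs of the 8 genes with enough cells, r had a median of 0.07 (-0.25 to 0.37) in erythroid BFU-E and -0.04 (-0.26 to 0.36) in CFU-E cells. In erythroid BFU-E the highest was Atf4 with Phgdh at 0.37, followed by Atf4 with Asns at 0.35. In CFU-E cells it was Psat1 with Phgdh at 0.36, the pair that acts in 1 route, while Atf4 with Asns stood at 0.11. Ddit3, Sesn2 and Ppp1r15a had a median of 0 CPM in erythroid BFU-E cells, and the part of such sparse counts in small values was not tested. In erythroid BFU-E cells r with log10 unthinned counts was 0.53 for Phgdh, 0.32 for Atf4 and 0.24 for Asns. With the number of genes with a count after thinning it was 0.45, 0.35 and 0.23. The part of depth and gene number in the pairs was not tested. The values are given as a description.

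For the 5 genes with a count in at least 80% of cells of both groups, the most alike of 4859 genes were ranked by the lower of the r values in 53 erythroid BFU-E and 86 CFU-E cells. Eif2ak1 was most like Ewsr1 (lower r 0.45), Ccna2 (0.34) and Nudc (0.34). Atf4 was most like Mrpl44 (0.40), Bysl (0.38) and Ado (0.36). For Asns they were Epb41 (0.37), Atp5b (0.35) and Rhno1 (0.34), where Epb41 encodes the red cell membrane protein 4.1. For Psat1 they were Psmd7, Cycs and Hspa9 (0.37, 0.37 and 0.36). Phgdh was most like Acly (0.42), Ldha (0.41) and Mybbp1a (0.40), and its r with Ldha reached 0.69 in erythroid BFU-E cells. None of the 10 genes appeared in these lists. The part of depth and of the number of genes detected per cell in these values was not tested.

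Around the 10 genes, 10 lists of the same pathway were counted in CFU-E over erythroid BFU-E cells, beside 6.14% higher and 31.3% lower for all genes. These shares, and the ratios of single genes in the lists, are for CPM. With TMM scaling the shares were 15.2% and 16.5%, and with median-of-ratios scaling 16.6% and 15.4%. Both scalings raise every ratio by a common factor, so a ratio somewhat under 1 in CPM can exceed 1 with them. The other eIF2 kinase genes had ratios under 1 in CPM where measured, with a median log2 fold of -0.51 beside -0.53 for all genes. With TMM scaling that median was 0.05, and with median-of-ratios scaling 0.12. Eif2ak4 (GCN2, the sensor of uncharged tRNA) had a ratio of 0.553 (0.465 to 0.657) and Eif2ak2 (PKR, the sensor of double-stranded RNA) one of 0.871 (0.689 to 1.11). Eif2ak3 (PERK, the endoplasmic reticulum kinase) was under 5 CPM in mean, at 1.89 CPM and 4.27 CPM. Of 12 eIF2, eIF2B and phosphatase genes, none passed 2-fold, and Eif2s1, the subunit that HRI phosphorylates, had the highest ratio at 1.73 (1.66 to 1.81), from 506 CPM to 877 CPM. The lowest of them was the phosphatase catalytic gene Ppp1cc at 0.511 (0.392 to 0.665).

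Of 7 measured genes for chaperones and the mitochondrial relay to HRI, 1 passed 2-fold in each direction in CPM. With both other scalings none was that much lower, and with median-of-ratios Pcbp1 was higher beside Hspa8. Over all genes, 15.2% were higher and 16.5% lower with TMM, and 16.6% and 15.4% with median-of-ratios scaling. Hspa8, the constitutive HSC70 chaperone, was at 5142 CPM and 17079 CPM, a ratio of 3.32 (3.28 to 3.36). Oma1, the mitochondrial protease that cleaves DELE1, was 2.81-fold lower (2.29 to 3.45). 0610009O20Rik, the older symbol of Dele1, had a ratio of 0.780 (0.688 to 0.884). Among paralogs of the 10 genes, 4 of 7 were measured, with 0 higher and 1 lower in CPM, and 2 higher (Chac2 and Asnsd1) and 1 lower with both other scalings. The lower gene was Trib2, 12.6-fold lower (10.2 to 15.8), while Chac2 had a ratio of 1.71 (1.29 to 2.28), Asnsd1 one of 1.54 (1.32 to 1.80) and Sesn1 one of 1.23 (1.09 to 1.38).

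ATF4 partners and other stress genes were mostly too scarce to compare, as 9 of 13 did not reach 5 CPM. Atf3, Cebpb and Fgf21 had no count in any group after thinning. Of the 4 measured, 0 were higher and 1 was lower, Cebpg, an ATF4 dimer partner, 2.02-fold lower (1.67 to 2.45). With TMM and with median-of-ratios scaling none of the 4 was at least 2-fold lower. Grb10 was 1.98-fold lower, Herpud1 1.83-fold and Eif4ebp1, the translation repressor 4E-BP1, 1.60-fold. The median log2 fold of the 4 was -0.92, beside -0.53 for all genes.

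Genes for amino acid supply were mixed. Of 8 measured synthesis and folate-enzyme genes, 2 were higher: Mthfd2, a mitochondrial folate enzyme, at 4.56 (4.12 to 5.06), and Psph, the last enzyme of serine synthesis, at 3.11 (2.71 to 3.57). Pycr1, for proline synthesis, was 2.15-fold lower (1.44 to 3.24), and Got1 had a ratio of 0.656 (0.554 to 0.778). Of the serine route, then, Phgdh was level, Psat1 was 1.48-fold and Psph 3.11-fold higher in CPM. Of 7 measured transporters, 1 was higher and 0 lower. Slc6a9, the glycine transporter, had a ratio of 4.86 (2.66 to 9.73), from 2.26 CPM to 11.01 CPM, and reached the 5 CPM mean only through the CFU-E cells. Slc1a4 had a ratio of 1.84 (1.46 to 2.33). Slc3a2 and Slc38a2 were at 0.927 (0.866 to 0.993) and 0.925 (0.854 to 1.002).

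The tRNA synthetase genes were listed apart by whether ATF4 is known to act on them. Among 13 responsive genes 1 passed 2-fold upward and 0 downward, and the median log2 fold was 0.32. Among 8 others 0 passed upward and 1 downward, and the median was -0.14. Nars, the asparaginyl-tRNA synthetase that uses the product of Asns, was the higher one, from 444 CPM to 1569 CPM, a ratio of 3.54 (3.39 to 3.70). Yars followed at 1.88 (1.75 to 2.03), and Lars was lowest at 0.687 (0.635 to 0.743). Of the others, Kars was 2.01-fold lower (1.92 to 2.11) and Farsb had a ratio of 1.71 (1.60 to 1.82). With TMM scaling 5 of 13 responsive and 1 of 8 other genes were at least 2-fold higher, beside 15.2% of all genes. Whether the lists differ was not tested. TGATGNAA lay in the promoters of 5 of the 8 responsive genes that had one in the table, and of 0 of 5 others, beside 3.97% of all promoters. It lay in 6 of 12 ATF4 partner and stress genes, 2 of 9 synthesis genes, 2 of 6 transporters and 1 of 9 eIF2, eIF2B and phosphatase genes. It lay in 0 of 3 other eIF2 kinase, 0 of 3 relay and chaperone, 0 of 5 paralog and 0 of 8 endoplasmic reticulum stress genes. The lists were made by known response to ATF4, and whether they differ in the motif was not tested. The 5 responsive genes with the motif were Aars, Gars, Iars, Tars and Yars. As 8 of the 13 responsive genes had a promoter in the table, the absence of Nars from these 5 does not show that its promoter lacks the motif.

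Endoplasmic reticulum stress genes, a list that includes the IRE1 and ATF6 arms acting in parallel with PERK, gave 0 higher and 1 lower of 10 measured in CPM, with a median of 0.03. With TMM and with median-of-ratios scaling the counts turned to 3 higher (Hspa5, Xbp1 and Sdf2l1) and 0 lower, with medians of 0.59 and 0.65. Of all genes, 15.2% and 16.6% were higher and 16.5% and 15.4% lower under these scalings. Ern1, the IRE1 sensor, was 2.75-fold lower (2.13 to 3.57). Sdf2l1 and Xbp1 had ratios of 1.74 (1.24 to 2.46) and 1.63 (1.31 to 2.05), and Hyou1 one of 0.654 (0.546 to 0.784). In CPM, the genes past 2-fold higher in the 10 lists were therefore Hspa8, Mthfd2, Psph, Slc6a9 and Nars, beside Asns among the 10 genes. With TMM scaling, Eif2s1, Chac2, Asnsd1, Slc1a4, Gars, Mars, Sars, Yars, Farsb, Hspa5, Xbp1 and Sdf2l1 passed as well. The lower calls of Pycr1, Kars and Ern1 were lost there too, and of the genes called lower in the lists Trib2 was the 1 left.

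**Figure D4:**
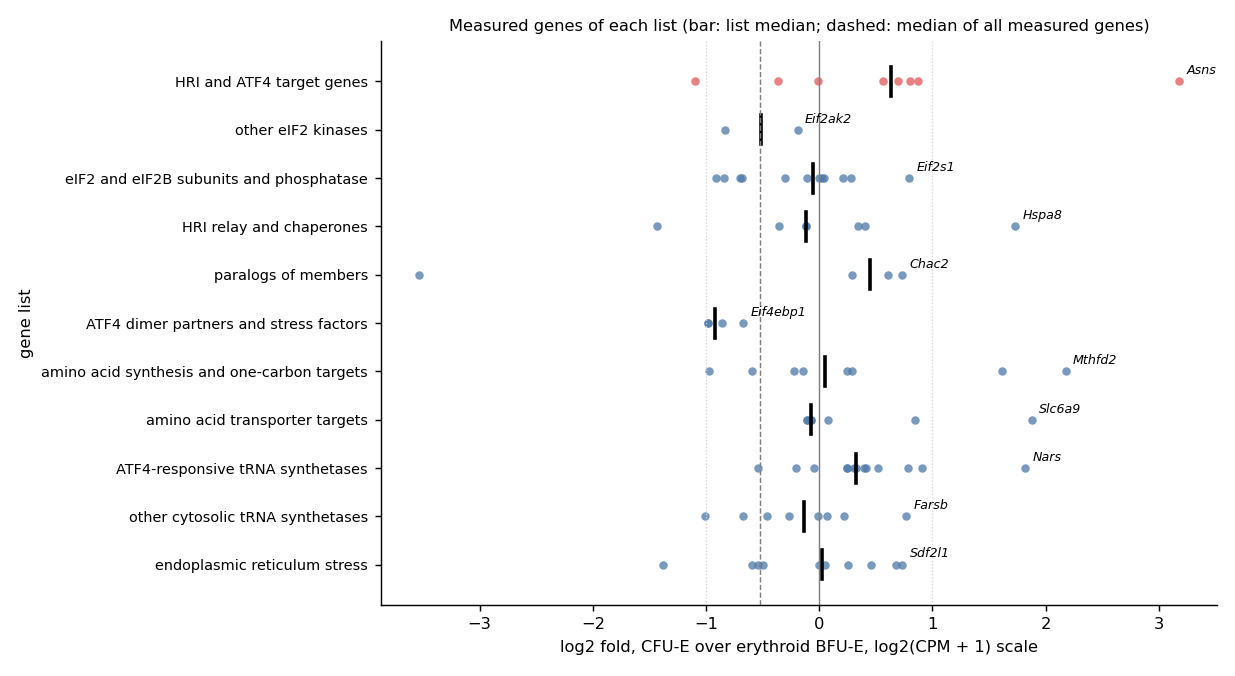
Log2 fold in CFU-E over erythroid BFU-E cells, on the log2(CPM + 1) scale, of the measured genes of each list, with the 10 genes of the report (8 measured) in red and the 10 pathway lists in blue. Each point is a gene, black bars are list medians, the dashed line is the median of all measured genes (-0.53), dotted lines mark 2-fold, and the gene with the highest fold of each list is named. Asns has the highest fold of all genes shown.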

How the data were processed

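The authors deposited unnormalized read counts, as whole numbers for each gene in each cell. The submitters' processing notes name STAR 2.4, featureCounts without a version, and the build GRCm38. For the annotation release, the multi-mapping rule and strand use, the entry is: not given in the sources used here. Of 192 labelled cells, 96 BFU-E and 95 CFU-E cells had a column with a matching name. A further CFU-E cell is not analysed here, and 1 column of values that matched no label stayed out. Coordinates, exonic lengths and overlaps come from GENCODE M21 on GRCm38.

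Kept cells (at least 100000 counts and 2000 genes) were thinned without replacement to 100000 counts (seed 1). The filter removed 4 BFU-E and 6 CFU-E cells. Thinned counts were summed per group, and the floor of 3 counts per group equals 0.566 CPM for the erythroid BFU-E class and 0.337 CPM for the CFU-E plate. Genes with a mean of at least 5 CPM over the groups compared were measured, and a 2-fold ratio was the call. Log2 folds use a pseudocount of 1. Shares carry exact Clopper-Pearson 95% intervals, which take cells as independent. Clusters within a plate used Ward linkage (10 principal components, 1000 variable genes) and left out the 10 genes and the pathway lists. From 2 to 5 clusters were tried, and a mean silhouette under 0.2 was read as no separated clusters. Median unthinned counts were alike in the BFU-E classes (1121650 and 1119890), and 1005520 in CFU-E cells.

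Titles number the wells and name no animal, so no test was made. The genes named are the 10 genes, the 2 measured genes with the highest and the 2 with the lowest log2 fold of CFU-E over erythroid BFU-E in each pathway list, the 3 most alike genes, and leading markers. Other genes named for a count of 5 or fewer were chosen after their values were seen. The 10 genes, lists, markers and rules were chosen with earlier results of these data known. The 10 pathway lists held 94 symbols, 93 of them in the file. Alternatives were TMM (edgeR 4.0.16) and median-of-ratios scaling (DESeq2 1.42.0, size factors only), other thinning, cell filters, level minimums, library sizes, pseudocounts, clustering settings and left-out cells. Scripts were tested on simulated counts. Python 3.11.15, SciPy 1.17.1, scikit-learn 1.9.0 and R 4.3.3 were used.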

Additional observations from a re-analysis of the deposited data

How the results depend on the processing

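No paired analysis was possible because the shared numbers in the titles only number wells, and the results come from no test. No value that passed 2-fold changed direction under the alternatives run. Genes at least 2-fold higher in CFU-E than in the whole BFU-E plate numbered 2, and 5 with TMM, 5 with median-of-ratios, 5 with a 1.5-fold threshold, 4 with library sizes without abundant and mitochondrial genes and 1 with cells of at least 20000 counts and 1000 genes thinned to 20000. Against erythroid BFU-E cells they numbered 1, and 5 with TMM, 5 with median-of-ratios, 4 at 1.5-fold, 3 with the smaller library sizes and 2 with at least 500000 counts and 5000 genes per cell. The 1 lower gene, Ddit3, became 0 in both comparisons with TMM, median-of-ratios, unthinned counts summed or averaged, another thinning, at least 500000 counts and 5000 genes, a minimum of 20 CPM and the smaller library sizes, and against erythroid BFU-E also without the highest cell of each group. In granulocyte-monocyte-like cells the 2 lower genes became 1 with a minimum of 20 CPM, and 3, with Ppp1r15a, with unthinned summed counts, at least 500000 counts and 5000 genes, without the highest cells and at 1.5-fold. Clusters held 37 to 42 granulocyte-monocyte-like cells beside 39. With 2000 variable genes, 34 of 38 such cells were among the 39, and with 20 principal components 37 of 38. Phgdh changed sign in 3 of 12 alternatives against the plate and in 5 of 13 against erythroid BFU-E, and Sesn2 in 2 of 13 against erythroid BFU-E. Leaving out the 1 erythroid BFU-E cell with more granulocyte-monocyte than erythroid markers was chosen after seeing the data and changed no count. With 1 plate per cell type, spread between animals has no estimate, and genes under 20 CPM are limited by depth.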

Other observations

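Pathway genes also differed between the cell classes of the BFU-E plate, and those named here were chosen after their values were seen. In granulocyte-monocyte-like over erythroid cells, 2 of 3 other eIF2 kinases were at least 2-fold higher: Eif2ak2 at 2.31 (1.84 to 2.91) and Eif2ak3 at 4.89 (2.38 to 11.1), the latter from 1.89 CPM to 9.23 CPM. Eif2ak4 had a ratio of 1.24 (1.04 to 1.47). For all genes the share higher was 13.8% and the share lower 8.75%. Eif2ak3, and below Sesn3 and Trib2, reached the 5 CPM mean only through the class where they were high. The sestrin paralogs stood opposite to Sesn2: Sesn1 had a ratio of 2.76 (2.46 to 3.10) and Sesn3 one of 14.9 (6.03 to 47.9). Trib2, a paralog of Trib3, was at 133 CPM in erythroid BFU-E and 34.7-fold lower in granulocyte-monocyte-like cells, and Grb10, an imprinted adaptor gene, was 16.4-fold lower. Of 10 endoplasmic reticulum stress genes, 2 were higher (Atf6 and Pdia4) and the median log2 fold was 0.81, beside -0.00 for all genes. None of 13 ATF4-responsive and none of 8 other synthetase genes passed 2-fold.

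The 3 CFU-E-plate cells with lymphoid markers held 30, 100 and 220 CPM of Asns and 1200, 1500 and 1590 CPM of Phgdh. Their summed Phgdh level was 1430 CPM, beside 757 CPM in the 86 other CFU-E cells. Hepatocyte markers summed to 633 CPM in the 3 cells and 146 CPM in the 86 others, and whether this bears on the Phgdh difference was not tested. These 3 wells had a median of 443001 unthinned counts, and 3 wells give no measure of spread.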
